A study of Bos taurus with 8 samples.

Results

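GCSH and AMT encode components of the glycine cleavage system, and they are 2 of the 27607 genes counted in bovine blastocysts derived from oocytes of prepubertal and pubertal heifers. Both were chosen on the group difference in the same 8 libraries, since they belong to the 52 metabolic genes that the study selected as changed between these groups. Their group differences are therefore given as a description, without a test. The covariation of both genes within the groups was not used to choose them and was tested.

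The glycine cleavage system is a mitochondrial enzyme complex that breaks down glycine and passes its methylene carbon to tetrahydrofolate, so that it feeds the folate-bound carbon pool used for nucleotide synthesis and methylation. GCSH is the H protein, a small lipoylated carrier that moves the aminomethyl group of glycine between the active sites of the other proteins. AMT is the T protein, the aminomethyltransferase that releases ammonia and forms methylenetetrahydrofolate; the P protein GLDC and the L protein DLD complete the system. Preimplantation mammalian embryos are known to take up glycine, which also serves them as an organic osmolyte.

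Total RNA was sequenced from 8 pools of on average 5 blastocysts on day 7 of culture. The donors were Polish Holstein-Friesian heifers. Prepubertal donors were younger than 10 months and pubertal donors older than 15 months, and oocytes of each group were pooled for maturation and fertilised in vitro with semen from the same bull. All samples are labelled female, and only blastocysts of morphological grade 1 or 2 entered the pools, so the values are means over embryos and over the cell types of the blastocyst. Samples 1, 2, 3 and 8 formed the prepubertal group and samples 4, 5, 6 and 7 the pubertal group, following the study's supplementary tables. The sample labels place sample 4 in the prepubertal and sample 8 in the pubertal group, so the fold changes and the covariation of GCSH and AMT are also given with the labels' groups and for the 6 samples whose group is undisputed.

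The gene counts per library ranged from 18510164 to 29549143, with a median of 24829694. Samples 3 and 7 stood apart from the others, with 54.1% and 47.5% of uniquely mapped reads outside genes against 35.8% to 41.6% in the other 6 libraries. They also had reads on more genes, 24203 and 24044 against 19503 to 20885. The fold changes and the covariation of GCSH and AMT are given with and without both.

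GCSH (ENSBTAG00000006795), the lipoylated carrier, had 54.0, 68.7, 46.8 and 46.6 CPM (reads on the gene per 1000000 reads on all genes) in the prepubertal samples 1, 2, 3 and 8. In the pubertal samples 4, 5, 6 and 7 it had 78.4, 150.6, 94.6 and 97.8 CPM. Sample 5 was the highest of all libraries and samples 3 and 8 were the lowest, and the groups did not overlap, the lowest pubertal library (sample 4) lying 1.14-fold above the highest prepubertal one (sample 2). The group means were 54.0 ± 10.4 CPM (SD, n = 4) and 105.4 ± 31.4 CPM (SD, n = 4). On the log2 scale GCSH was 1.02 higher in the pubertal group (standard error 0.21), a ratio of 2.02 after TMM normalisation.

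AMT (ENSBTAG00000002321), the aminomethyltransferase, had 60.3, 54.9, 50.6 and 52.2 CPM in the prepubertal samples 1, 2, 3 and 8. In the pubertal samples 4, 5, 6 and 7 it had 72.6, 67.4, 84.5 and 70.9 CPM. Sample 6 was the highest library and sample 3 the lowest, and the groups did not overlap, with the lowest pubertal library (sample 5) 1.12-fold above the highest prepubertal one (sample 1). The group means were 54.5 ± 4.27 CPM (SD, n = 4) and 73.8 ± 7.43 CPM (SD, n = 4). The log2 fold change was 0.47 (standard error 0.11), a ratio of 1.39 on the same scale.

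**Figure D1:**
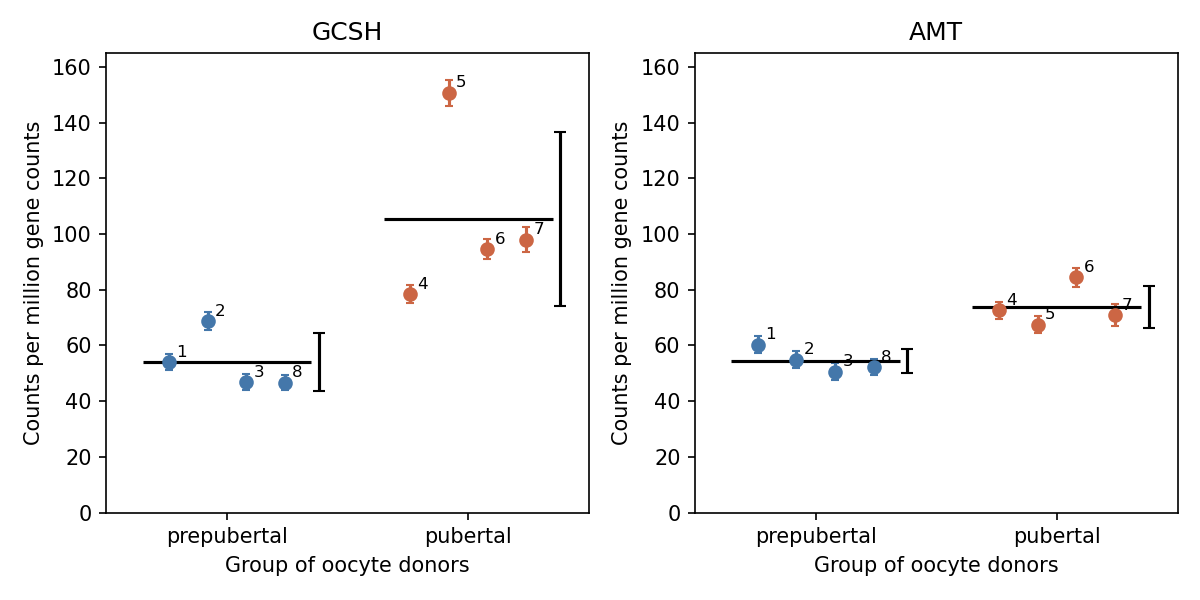
Level of GCSH and AMT in each library, in CPM of gene counts, by group of oocyte donors. Numbered points are libraries with their 95% counting interval, horizontal lines are group means and the black bars beside them the SD over 4 libraries; GCSH in sample 5 reaches 150.6 CPM, and for both genes every pubertal library lies above every prepubertal one.

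Every pubertal library lay above every prepubertal one for both genes, as it did for 2.35% of the 15513 genes tested. Since both genes were selected on this contrast, nothing is read from the comparison. The same held for both genes over the 6 undisputed samples, where it held for 6.74% of the genes tested. With the labels' groups it held for 0 of the 2 genes and for 1.26% of those tested, since sample 4 then counted as prepubertal and sample 8 as pubertal. The log2 fold change was then 0.70 (standard error 0.30) for GCSH and 0.24 (standard error 0.16) for AMT. Over the 6 undisputed samples it was 1.08 (standard error 0.22) for GCSH and 0.48 (standard error 0.13) for AMT. Without samples 3 and 7 it was 0.99 for GCSH and 0.46 for AMT. The pools hold several cell types, so that more cells with these transcripts and more transcript per cell cannot be told apart.

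Within groups, the coefficient of variation over the libraries was 19.2% in the prepubertal and 29.8% in the pubertal group for GCSH, and 7.84% and 10.1% for AMT. For both genes the values rested on 1 library in each group. Those of GCSH were 8.60% without sample 2 and 11.55% without sample 5. Those of AMT were 4.15% without sample 1 and 3.77% without sample 6. With the labels' groups they were 22.9% and 43.7% for GCSH, and 15.9% and 19.3% for AMT. The difference in spread between the genes was not tested. Each value rested on 942 to 4107 reads for GCSH and 1018 to 2374 reads for AMT, for which counting alone gives a coefficient of variation of at most 3.26% and 3.13%. For GCSH in sample 5 the 95% counting interval (exact Poisson) was 146.1 to 155.3 CPM, far from the next pubertal library at 97.8 CPM. These intervals cover counting error only. The libraries were amplified in 12 final PCR cycles from RNA with integrity values of 5.5 to 7. Whether reads copied from the same molecule were removed is not given, so sampling error can be larger than these values. The biological coefficient of variation estimated by edgeR was 21.4% for GCSH and 11.9% for AMT, against a median of 20.3% over all genes tested.

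The log2 ratio of GCSH to AMT, of which only the change among libraries is meaningful because gene length was not taken into account, was -0.16, 0.32, -0.11 and -0.16 in the prepubertal samples 1, 2, 3 and 8. In the pubertal samples 4, 5, 6 and 7 it was 0.11, 1.16, 0.16 and 0.46. Sample 5 stood highest, and the groups overlapped, since the prepubertal sample 2 lay above the pubertal samples 4 and 6. The libraries with the highest GCSH in each group, samples 2 and 5, had the highest ratio of their group. This follows largely from how the ratio is made, since GCSH is its numerator. Within groups GCSH had an SD of 0.34 in log2 CPM against 0.13 for AMT.

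Whether the carrier and the aminomethyltransferase varied together was examined on deviations from the own group's mean in log2 CPM, which removes the group difference. The deviations of GCSH were 0.02, 0.36, -0.19 and -0.20 in samples 1, 2, 3 and 8, and -0.38, 0.56, -0.11 and -0.06 in samples 4, 5, 6 and 7. Those of AMT in the same order were 0.15, 0.01, -0.10 and -0.06, and -0.02, -0.13, 0.20 and -0.05. Both genes deviated to the same side in 6 of the 8 libraries, above the group mean in samples 1 and 2 and below it in samples 3, 4, 7 and 8. In 3 of these 6 (samples 1, 2 and 4) the deviation of 1 of the genes was smaller than the SD expected from counting alone. They deviated to opposite sides in samples 5 and 6. In sample 5 GCSH was highest of the pubertal group and AMT lowest in CPM, but after TMM normalisation AMT was lowest in sample 7 and its deviation in sample 5 was -0.03.

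No covariation of GCSH and AMT within the groups was detected. Pearson's r was -0.17 (exact within-group permutation test, two-sided, p = 0.733, n = 8 libraries) and Spearman's rho -0.02 (exact within-group permutation test, p = 0.979). The smallest p that the 576 arrangements allow is 0.00174. Without samples 2 and 5, whose GCSH deviations lay farthest from the median deviation, r was 0.55 (exact permutation test, p = 0.444, n = 6). The negative sign rested on sample 5, without which r was 0.36 (exact permutation test, p = 0.417, n = 7), whereas it was -0.23 without sample 2 (exact permutation test, p = 0.632, n = 7). The sign also depended on the scaling, with r = 0.22 after TMM normalisation (exact permutation test, p = 0.634, n = 8), which gave sample 5 the lowest factor of the 8 libraries, 0.92. Over the 6 undisputed samples it was -0.35 (exact permutation test, p = 0.611). Without samples 3 and 7 it was -0.33 (exact permutation test, p = 0.722, n = 6). With the labels' groups r was 0.65, which is no test of covariation, because samples 4 and 8 then carry the group difference on which both genes were chosen into the deviations. With 8 libraries a weak or moderate relation could go undetected.

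**Figure D2:**
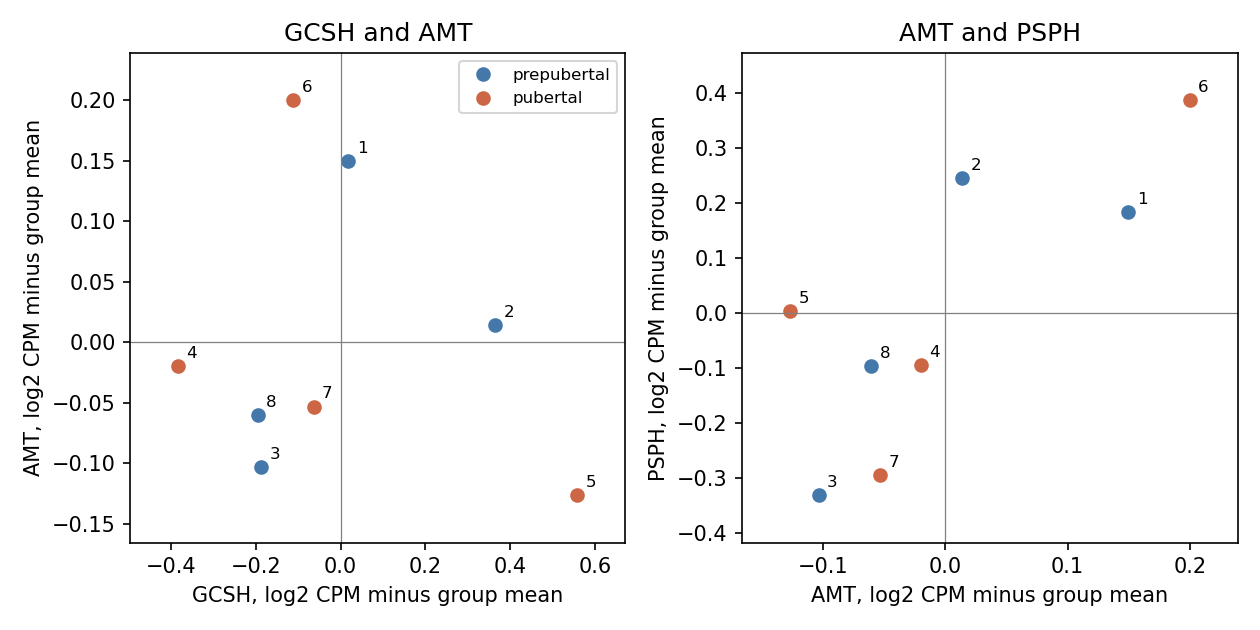
Deviations of log2 CPM from the mean of the own group in the 8 libraries, for GCSH against AMT and for AMT against PSPH; numbers are samples. Sample 5 lies 0.56 above its group mean for GCSH and 0.13 below it for AMT, a value that is -0.03 after TMM normalisation.

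Among the 15512 other genes tested, 46.6% had a higher r with GCSH than AMT had, and 60.3% had a higher r with AMT than GCSH had. These shares describe the libraries, since genes are not independent replicates. The identifiers most like each gene had no symbol in the table used and were ENSBTAG00000003044 with r = 0.99 to GCSH and ENSBTAG00000008116 with r = 0.99 to AMT. Each is the highest of 15512 values over 8 libraries and was not tested.

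Relations were also computed with the 50 other metabolic genes of the study's list, giving 101 relations with that of GCSH and AMT. At a Benjamini-Hochberg adjusted p under 0.05, 0 of the 101 passed, and 9 had an unadjusted p under 0.05 in the exact within-group permutation test, where the threshold alone would give 5.05. Leaving out 1 library changed this count, which was 4 without sample 3 or sample 7, 5 without sample 4 and 12 without sample 5. The lowest adjusted p was 0.468. A single relation at the smallest p that the arrangements allow would have an adjusted p of 0.175, and at least 4 would have to lie there together to pass, so the count of 0 says little. The median r with the 50 genes was -0.30 for GCSH and -0.05 for AMT, against -0.21 and -0.05 over all 15512 other genes tested.

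For GCSH the highest values were those of AGPAT5, an acyltransferase of phospholipid synthesis, with r = 0.56 (rho = 0.64), ATP5PD, a subunit of ATP synthase, with r = 0.48 (rho = 0.69), and ETNPPL, a phospholyase of ethanolamine phosphate, with r = 0.39 (rho = 0.45). The exact permutation p of r was 0.1997, 0.231 and 0.483 (adjusted p = 0.601, 0.601 and 0.870), and that of rho 0.139, 0.0903 and 0.354. The lowest was that of GMDS, the dehydratase that starts GDP-fucose synthesis, with r = -0.90 (exact permutation test, p = 0.00521, adjusted p = 0.468) and rho = -0.90 (exact permutation test, p = 0.0104). All 6 relations of GCSH with an unadjusted p under 0.05 were negative. Negative values were common for GCSH, since r was above 0 for 33.5% of the 15512 other genes tested and for 18 of the 50 listed. The r of GMDS was -0.86 without sample 2, -0.83 over the 6 undisputed samples and -0.99 without sample 6. The exact permutation p was then 0.0625, 0.111 and 0.00694, and it was 0.167 without samples 2 and 5. Fewer libraries allow fewer arrangements. Without samples 2 and 5, r was 0.76 for AGPAT5, 0.86 for ATP5PD, 0.16 for ETNPPL and -0.79 for GMDS. The value of ATP5PD was 0.12 without sample 5 alone, 0.82 without sample 2 alone, 0.29 without sample 4 and 0.18 over the 6 undisputed samples. Its exact permutation p was 0.889 without sample 5, 0.00694 without sample 2 and 0.0278 without both. The last 2 are the smallest that their arrangements allow, and they are unadjusted values for a gene named for its high r. The r of AGPAT5 was 0.35 without sample 4, and that of ETNPPL 0.26 without sample 5. After TMM normalisation r was 0.65 for AGPAT5, 0.69 for ATP5PD, 0.49 for ETNPPL and -0.81 for GMDS, with an unadjusted exact permutation p of 0.120, 0.108, 0.304 and 0.0243.

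For AMT the highest values were those of MGAT4B, a glycosyltransferase of N-glycan branching, with r = 0.82 (rho = 0.83), PSPH, the phosphatase of the last step of serine synthesis, with r = 0.79 (rho = 0.71), and PCK2, the mitochondrial phosphoenolpyruvate carboxykinase, with r = 0.79 (rho = 0.40). The exact permutation p of r was 0.0486, 0.0434 and 0.0556 (adjusted p = 0.510 for each), and that of rho 0.0347, 0.0764 and 0.431. The lowest was that of SELENBP1, a methanethiol oxidase, with r = -0.89 (exact permutation test, p = 0.0139, adjusted p = 0.468) and rho = -0.76 (exact permutation test, p = 0.0556). Samples 1 and 6 had the AMT deviations farthest from the median deviation. Without both, r was 0.74 for MGAT4B, 0.49 for PSPH, -0.28 for PCK2 and -0.59 for SELENBP1. The exact permutation p was then 0.194, 0.444, 0.583 and 0.333, with fewer arrangements. The value of PCK2 rested on these libraries. Without sample 6 alone, r was 0.77 for MGAT4B, 0.59 for PSPH, 0.50 for PCK2 and -0.78 for SELENBP1. The exact permutation p was then 0.0486, 0.306, 0.347 and 0.0972. After TMM normalisation r was 0.81 for MGAT4B, 0.89 for PSPH, 0.90 for PCK2 and -0.90 for SELENBP1, with an unadjusted exact permutation p of 0.0469, 0.0104, 0.00694 and 0.00868, and 0 of the 101 relations passed after adjustment on this scale.

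The study's list holds further genes of glycine, serine and threonine metabolism, PSPH and ALAS2, which were chosen on the same contrast. PSPH (ENSBTAG00000013081) had 41.4, 43.2, 28.9 and 34.1 CPM in the prepubertal samples 1, 2, 3 and 8, and 48.2, 51.5, 67.2 and 41.9 CPM in the pubertal samples 4, 5, 6 and 7. The groups overlapped, since sample 7 lay below sample 2, and the log2 fold change was 0.54 (standard error 0.17), or 0.30 (standard error 0.22) with the labels' groups. ALAS2 (ENSBTAG00000013178), the erythroid enzyme that joins glycine with succinyl-CoA in haem synthesis, had 5.84, 3.85, 4.97 and 12.1 CPM in the prepubertal and 4.67, 1.504, 2.14 and 2.70 CPM in the pubertal samples, in the same order. Sample 8 was the highest, and the groups overlapped, since the pubertal sample 4 lay above the prepubertal sample 2. The log2 fold change was -1.25 (standard error 0.40). It was -0.07 (standard error 0.54) with the labels' groups, which count sample 8 as pubertal, and -0.80 without sample 8. Within the groups ALAS2 had r = -0.79 with GCSH (exact permutation test, p = 0.0469, adjusted p = 0.510). With AMT it had r = -0.05 (exact permutation test, p = 0.925).

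For carbon metabolism the list also holds IDH2, ALDOC, ENO1 and PGD. IDH2, the mitochondrial NADP-dependent isocitrate dehydrogenase, and the glycolytic enzymes ALDOC and ENO1 were lower in the pubertal group, with log2 fold changes of -0.53, -0.47 and -0.54. The groups overlapped for IDH2. Every pubertal library lay below every prepubertal one for ALDOC and ENO1, as it did for 2.93% of the genes tested. The nearest libraries of the groups were only 1.02-fold apart for ALDOC (13.8 and 13.5 CPM) and 1.01-fold for ENO1 (228.3 and 227.1 CPM), and their 95% counting intervals overlapped. The groups overlapped for both genes with the labels' groups, in which the pubertal sample 8 lay above the prepubertal sample 4. With the labels' groups the log2 fold change was -0.34 for IDH2, -0.19 for ALDOC and -0.52 for ENO1. PGD, of the pentose phosphate pathway, was higher in the pubertal group, and its groups overlapped. Its log2 fold change was 0.54, or 0.35 without sample 6 and 0.46 with the labels' groups. The median log2 fold change of all genes tested was -0.02.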

How the data were processed

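The authors trimmed reads with Flexbar, aligned them with STAR to the bovine assembly UCD1.2 and deposited raw counts per Ensembl gene from HTSeq-count. The sources used here do not give the strand setting, the use of molecular identifiers or the tool versions, so overlapping or antisense genes are uncertain; in the RefSeq table (ARS-UCD2.0) AMT lies between NICN1 and TCTA. Reads mapped to several loci (11.5% to 17.2% of mapped reads) are not counted on genes, so near-identical copies are uncertain. Reads outside genes (35.8% to 54.1% of uniquely mapped reads) and ambiguous reads (0.448% to 0.581%) were kept out of library sizes.

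Levels are CPM of gene counts. Log2 fold changes come from edgeR 4.0.16 in R 4.3.3 (filterByExpr, TMM, glmQLFit, glmQLFTest) over all 15513 genes kept, among them GCSH and AMT, with standard errors from the F value. Deviations were taken in log2 CPM (prior count 2), and their relations an exact two-sided test permuting within groups. The edgeR and permutation steps were tested on simulated data. Counts of libraries of the same group differed by a chi-square per degree of freedom of 21.5 to 53.1. Separately amplified libraries of the same RNA could also exceed counting noise, so this cannot show independent replicates; they were treated as separate replicates as the study describes them, and oocytes of a group were pooled for maturation. The members and lists were chosen with earlier results of these data known. Besides GCSH and AMT, the genes named are those of the study's list for the same pathways, and for each of GCSH and AMT the 3 with the highest and the 1 with the lowest r. The alternatives were other groupings, libraries left out, DESeq2 1.42.0, other normalisations and filters, and a covariate; those for the 101 relations and the other pathway genes were chosen after seeing the data. Symbols were taken from the study's table for 52 identifiers, so GLDC, DLD, other one-carbon genes and cell type markers were not analysed here, nor were promoter sequences.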

Additional observations from a re-analysis of the deposited data

Results flagged for a closer look

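ALDOC in the prepubertal sample 1 lay far from the other libraries of its group, with 13.8 CPM against 18.7 CPM in the nearest. Chance marks about 1 in 20 groups in this way, and 16 groups of 4 libraries were checked (8 genes in each group). GCSH in sample 5, the highest library at 150.6 CPM, did not pass this limit.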

How the results depend on the processing

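The log2 fold change of GCSH was above 0 in all 17 alternatives, from 0.70 with the labels' groups to 1.16 without sample 2, and leaving out each library in turn gave 0.76 (sample 5) to 1.16. That of AMT was also above 0 in all 17, and moved by more than the SD between libraries with the labels' groups only, to 0.24. Leaving out each library gave 0.41 to 0.55. Both genes were chosen on this difference in the same libraries, so a sign kept in refits of them is no test. The r of GCSH and AMT was negative in 12 of 17 alternatives. It was positive with the labels' groups (0.65), after TMM (0.22), on DESeq2's variance-stabilized values (0.24), without samples 2 and 5 (0.55) and without sample 5 (0.36), and lay between -0.30 and 0.36 over the fits that left out each library. Apart from the labels' groups, the exact permutation p lay between 0.417 and 0.979. The labels' groups bring the difference on which the genes were chosen into the deviations; the cause of the other changes was not tested. For the 101 relations an unadjusted p under 0.05 was found for 9 with the groups used. Among the 12 alternatives added after seeing the data it was found for 44 with the labels' groups, a count that the choice of the genes on the other grouping can raise. In the other 11 it was found for 1 to 12, with 1 over the 6 undisputed samples and 1 without samples 3 and 7. Both settings with 6 libraries had only 36 arrangements. Only the smallest exact permutation p they allow, 0.0278, lies under 0.05, so their counts cannot be set against the 9. After adjustment 0 passed in the 12 alternatives. This says little about stability, since no relation could pass alone, only several together. With the labels' groups, where 44 had an unadjusted p under 0.05, passing together was possible and did not occur. The 8 relations named for the highest or lowest r kept their sign in these 12 alternatives, but that of AMT and PCK2 turned to -0.28 without samples 1 and 6.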
